A study of Mus musculus with 16 samples.

Results

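The genes described here encode the subunits of the mitochondrial respiratory chain that are made from nuclear DNA. They were chosen by name from the protein-coding genes of the count table. The symbols taken were those that begin with Nduf followed by a, b, c, s or v and a digit, the 4 Sdh genes, and those that begin with Uqcr, with Cox, a digit from 4 to 8 and a letter from a to c, or with Atp5. The rule found 83 of the 55385 genes in the table, under 82 symbols, because Atp5o occurs as 2 entries of which 1 has no count in any library. Of these, 37 are named for complex I, 4 for complex II, 8 for complex III, 16 for complex IV and 18 for complex V. A symbol is not a role. The rule took in Ndufa4l2, a paralogue of Ndufa4, and Atp5s, a coupling factor, and it left out Cox4i1, Cyc1 and Ndufab1, which are subunits under other names.

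Short-read RNA-Seq was performed on 8 tissues (heart, muscle, brown and white adipose, liver, kidney, lung and spleen) of male C57BL/6 mice that arrived at 12 weeks of age. Mice either had chow and water freely (fed) or went without food for 24 h (fasting), and tissues were collected at 10 am. Equal parts of tissue from the 3 mice of a group were pooled before extraction, and each tissue and treatment gave 1 library, 16 in all. All groups share the strain, the sex and the housing, and no group carries a mutation or a drug. The same 2 pools of mice gave the 8 tissues, so no value has an error between animals, and a test within a tissue compares its pair of libraries and not the conditions. In bulk tissue, a smaller share of cells rich in mitochondria and less RNA per cell cannot be told apart.

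The respiratory chain passes electrons from NADH and succinate to oxygen and stores the energy as a proton gradient. Complex I takes electrons from NADH and complex II from succinate, complex III hands them to cytochrome c, and complex IV gives them to oxygen. Complex V, the ATP synthase, lets protons flow back through a ring of c subunits and makes ATP in its F1 head. Brown adipose tissue is known for dissipating the gradient as heat through Ucp1, whereas heart uses it for ATP. Some subunits of complex IV exist as a general isoform and as an isoform known from heart and skeletal muscle.

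The libraries held between 14245178 and 36069968 counts on genes, so that 3 counts corresponded to 0.0832 to 0.211 CPM (counts per 1000000 counts of the library). No count was listed for any of the 37 genes on the mitochondrial chromosome, and the subunits they encode are not analysed here. The fast skeletal muscle list summed to 170434 CPM in fed and 169659 CPM in fasting muscle, the brown adipocyte list to 5054 and 4474 CPM in brown adipose, and the cardiomyocyte list to 44759 and 44906 CPM in heart, each highest there among the 8 tissues. Traces of neighbouring tissue were also measured. Fast skeletal muscle markers reached 3058 CPM in fed and 1396 CPM in fasting brown adipose, and cardiomyocyte markers reached 976 CPM in fed and 488 CPM in fasting lung.

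Of the 83 members, 75 reached 1 CPM in every library and 72 reached 10 CPM in every library. Only 3 stayed under 1 CPM in all 16. These were the empty entry of Atp5o, Cox8c and Cox7b2, of which the last 2 are complex IV paralogues known from testis. Cox8c was listed at 0 in 15 libraries and at 0.0365 CPM in fasting white adipose. Cox7b2 reached 0.328 CPM at most, in fasting heart.

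Members were most abundant in heart and brown adipose. Their CPM summed to 43477 in fed and 42565 in fasting heart, 4.35% and 4.26% of all counts. Brown adipose followed with 40856 and 39031 CPM, and kidney with 18973 and 17504 CPM. These ranges did not overlap between the 3 tissues. Muscle held 17078 CPM when fed and 13834 CPM when fasting, so that fed muscle lay close to fasting kidney. Liver (9188 fed and 9640 fasting) and white adipose (8558 and 7087) came next. Lung (4660 and 4043) and spleen (4386 and 4173) were lowest and overlapped each other. The scale matters for 1 step of this order. A few contractile genes take a large part of the counts in muscle, and with TMM factors muscle (30740 fed and 26560 fasting on that scale) stood above kidney (17423 and 16536).

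**Figure D1:**
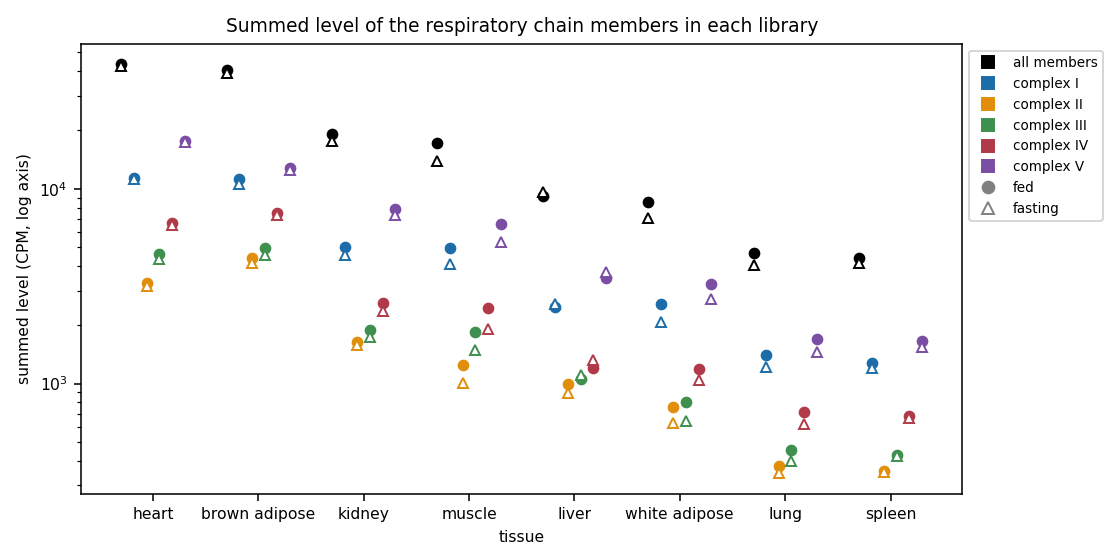
Summed CPM (log axis) of all members and of each complex in the 16 libraries, with filled circles for fed and open triangles for fasting. Heart and brown adipose lie highest, from 39031 to 43477 CPM for all members, and spleen and lung lowest, from 4043 to 4660 CPM.

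Tissues were compared in 1 fit of all 16 libraries by the quasi-likelihood test of edgeR, scaled by TMM factors, and each tissue was set against the mean of the other 7 with treatment as a block. A gene was called at an adjusted p under 0.05 and a log2 difference above 0.5 in size. In heart, 77 of the 80 members tested were higher, beside 23.0% of all 17296 genes, and 1 was lower, beside 23.9%. In muscle, 76 were higher (27.6% of all genes) and 3 lower (30.0%), and in brown adipose 74 were higher (22.0%) and 1 lower (21.3%). Kidney had 26 members higher (25.4%) and 4 lower (22.1%), and liver had 16 higher (26.7%) and 4 lower (29.1%). In spleen, 78 members were lower (34.2%) and 0 higher (32.1%), the fitted difference was below 0 for all 80, and DESeq2 also called 0 higher, whereas scaling by total counts called 1 higher. Lung had 77 lower (24.8%) and 2 higher (27.6%), and white adipose 75 lower (18.3%) and 1 higher (23.8%). The median member differed from the other tissues by 2.13 in heart, 1.75 in brown adipose, 1.34 in muscle, 0.41 in kidney, 0.21 in liver, -1.22 in white adipose, -2.22 in lung and -2.40 in spleen on the log2 scale, beside medians of all genes between -0.09 and 0.00. When libraries were scaled by total counts instead, the median of all genes moved by -1.02 in muscle and -0.72 in liver. Then 26 members were called higher in muscle (beside 9.3% of all genes) and 41 lower in liver (56.4%), and 41 rather than 26 higher in kidney (29.1%). The fitted difference changed sign for 12 members in muscle, 60 in liver and 2 in spleen. The 80 tests are not independent pieces of evidence, since the tissues' scaling moves all members together.

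**Figure D2:**
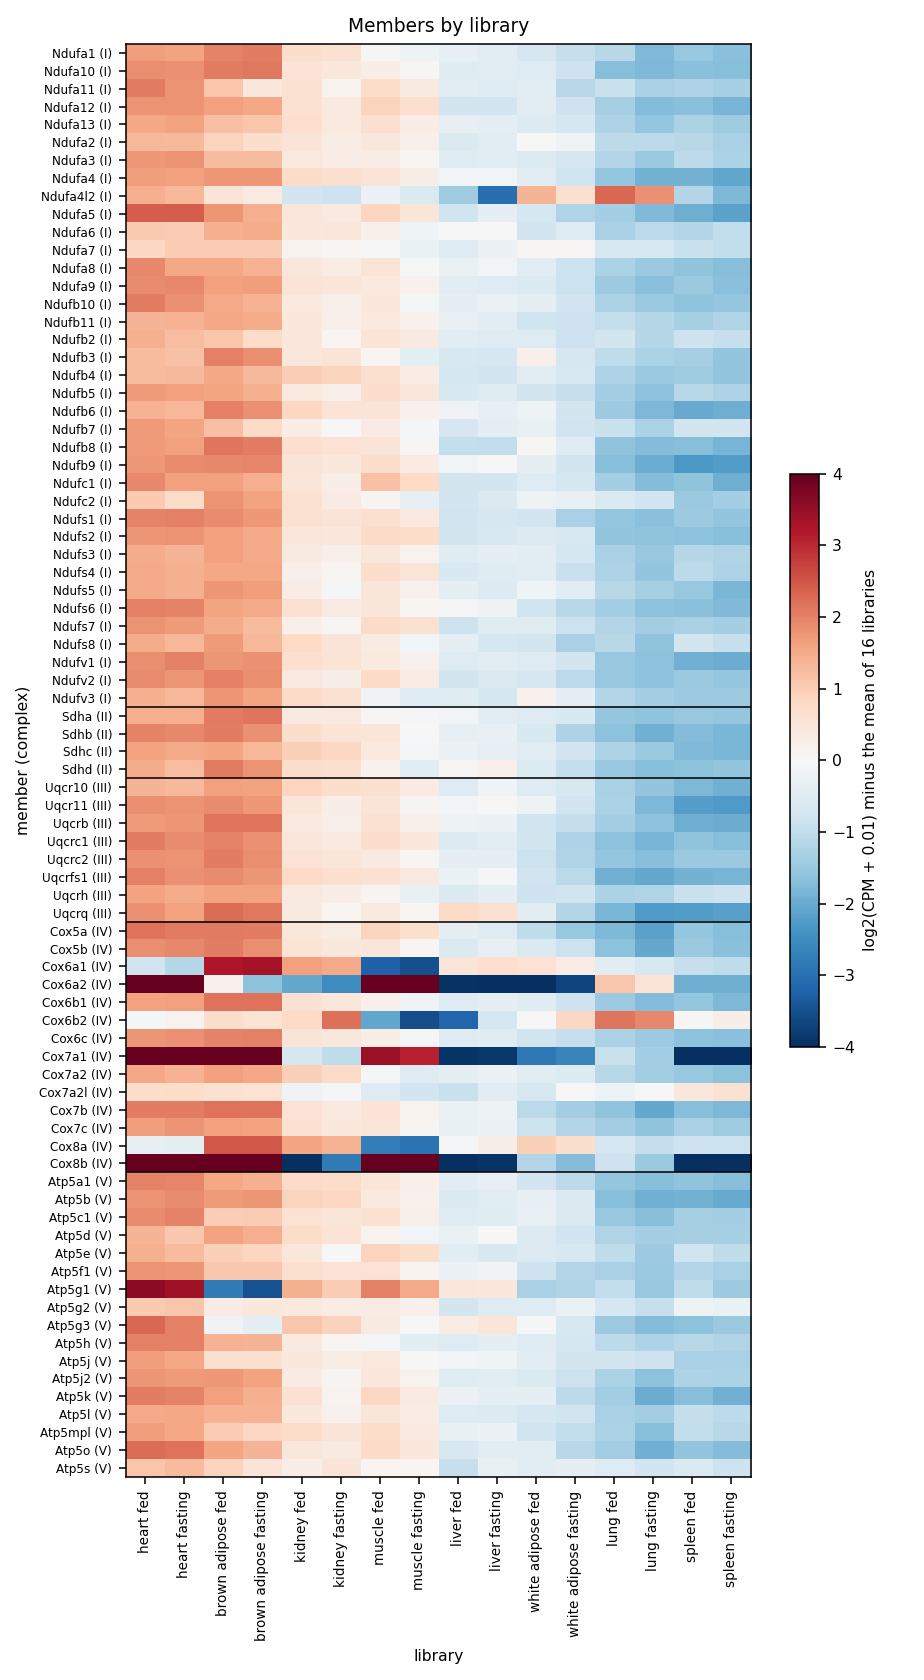
Colour gives log2(CPM + 0.01) of each member in each library after its mean over the 16 libraries was subtracted, with members grouped by complex and libraries by tissue. Most rows run from red in heart and brown adipose to blue in lung and spleen, and the rows that break this order are Cox6a1, Cox6a2, Cox7a1, Cox8a, Cox8b, Cox7a2l, Cox6b2, Ndufa4l2, Atp5g1 and Atp5g3.

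The members that departed furthest from this order were the paired isoforms of complex IV. To see which isoform a tissue used, counts were divided by the length of the principal transcript, and the share of each isoform in its family was taken. Intervals given below are exact binomial 95% intervals on the share of raw counts and cover counting error only. Per kb of transcript, Cox6a2, the muscle isoform of subunit VIa (chromosome 7, 128205435-128206387, GRCm38), made up 93.6% of its pair in fed and 94.4% in fasting heart, and 96.7% and 96.5% in muscle. In brown adipose it made up 0.699% and 0.184%. Cox6a2 stood at 1072 and 973 CPM in heart and at 399 and 313 CPM in muscle, against 8.49 and 2.39 CPM in brown adipose. Cox6a1, the general isoform (chromosome 5, 115345642-115348981), ran the other way, with 1013 and 1084 CPM in brown adipose, 61.3 and 48.8 CPM in heart and 11.5 and 9.44 CPM in muscle. In the fit, Cox6a2 was 8.23 ± 0.20 (SE) higher on the log2 scale in heart than in the other tissues (edgeR adjusted p = 1.64e-10) and 7.32 ± 0.19 higher in muscle (adjusted p = 1.72e-10).

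The other pairs drew the line elsewhere. Cox7a1 (chromosome 7, 30184144-30186078), the muscle isoform of subunit VIIa, was at 735 and 704 CPM in heart and 155 and 121 CPM in muscle, and also at 340 and 261 CPM in brown adipose. It made up 78.9% and 80.0% of its pair per kb in heart, 71.2% and 72.3% in muscle and 62.2% and 57.2% in brown adipose. Cox8b (chromosome 7, 140898945-140900446), the muscle isoform of subunit VIII, was at 415 and 402 CPM in heart, 237 and 171 CPM in muscle and 611 and 542 CPM in brown adipose, where it was highest. Its share per kb was 85.7% and 85.9% in heart, 94.9% and 93.9% in muscle, and 55.7% and 52.7% in brown adipose. On CPM, brown adipose thus held Cox7a1 and Cox8b at the level of muscle or above it and Cox6a2 at a small fraction of it. Against the other tissues, Cox8b was 6.67 ± 0.22 (SE) higher in brown adipose on the log2 scale (edgeR adjusted p = 5.09e-09) and Cox7a1 was 4.96 ± 0.09 higher (adjusted p = 2e-10).

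Fast skeletal muscle markers were measured in the brown adipose libraries, and their size can be set beside each isoform. The summed fast muscle markers in brown adipose came to 1.79% of their level in muscle when fed and 0.823% when fasting. Cox6a2 came to 2.13% and 0.762% of its level in muscle, near the markers in both libraries. Cox8b came to 258% and 317%, and Cox7a1 to 219% and 216%. These percentages are on CPM. TMM factors took the summed members from 17078 to 30740 in fed muscle and from 40856 to 39184 in fed brown adipose. The fasting libraries moved the same way, so on that scale all these percentages are lower. The part that muscle RNA plays in the Cox6a2 counts of brown adipose was not tested.

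In the remaining tissues the general isoforms made up most of each pair. Cox6a2 held at most 3% of its pair per kb in spleen, kidney, liver and white adipose, Cox7a1 at most 6.4% and Cox8b at most 2.39%. Lung stood between, with 14.9% and 11.9% for Cox6a2, 19.7% and 17.7% for Cox7a1 and 8.83% and 6.93% for Cox8b. Beside it, cardiomyocyte markers in lung came to 2.18% (fed) and 1.09% (fasting) of their level in heart, and Cox6a2 to 1.52% and 1.13%, Cox8b to 1.24% and 0.820% and Cox7a1 to 1.03% and 0.783%. Among these markers, Myl7 was higher in lung (88.4 CPM fed and 35.5 CPM fasting) than in heart (14.5 and 0.918 CPM). Nppa was higher in fed lung (198 against 113 CPM) but not in fasting lung (27.4 against 119 CPM). The others were lower in lung than in heart. The part that cardiomyocyte RNA plays in these shares was not tested. Cox6a2 also shares 274 of its 680 exon bases with Itgad on the opposite strand. The strand setting of the counting is not given in the sources used here.

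**Figure D3:**
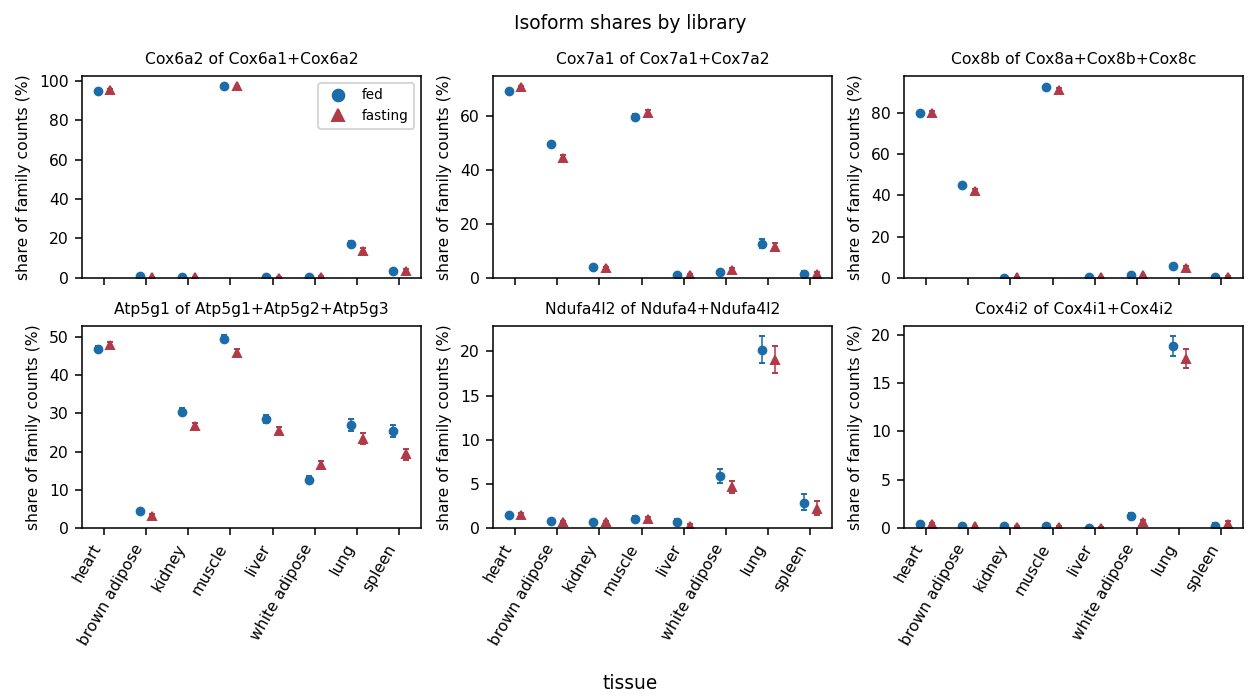
Share of raw counts (%) that 6 isoforms took in their families, by tissue, with circles for fed, triangles for fasting and bars for the exact binomial 95% interval. Cox6a2 is high in heart and muscle only, Cox7a1 and Cox8b also in brown adipose, Atp5g1 is lowest in brown adipose (4.31% and 2.98%), and Ndufa4l2 and Cox4i2 are highest in lung.

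The sequences upstream of the Cox7a and Cox8 pairs are shown because these pairs divide the tissues. They are from the RefSeq promoter table (GRCm38.p6), run 5' to 3' on the strand of the gene up to 250 bases before the start site, and leave out bases that lie in annotated exons. Capitals mark the searched motifs that a script found on either strand. The Cox7a1 stretch is chr7:30183921-30184143 (plus strand), Cox7a2 chr9:79759879-79760103 (minus), Cox8b chr7:140900447-140900696 (minus) and Cox8a chr19:7217617-7217866 (minus).
Cox7a1: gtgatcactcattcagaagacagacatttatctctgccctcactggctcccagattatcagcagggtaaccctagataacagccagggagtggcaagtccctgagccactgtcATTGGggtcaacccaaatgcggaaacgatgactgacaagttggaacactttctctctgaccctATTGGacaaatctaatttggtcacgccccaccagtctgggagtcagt
Cox7a2: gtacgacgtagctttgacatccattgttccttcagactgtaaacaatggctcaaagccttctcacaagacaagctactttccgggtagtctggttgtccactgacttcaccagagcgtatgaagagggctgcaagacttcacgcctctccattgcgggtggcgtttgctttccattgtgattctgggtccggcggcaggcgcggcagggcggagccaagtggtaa
Cox8b: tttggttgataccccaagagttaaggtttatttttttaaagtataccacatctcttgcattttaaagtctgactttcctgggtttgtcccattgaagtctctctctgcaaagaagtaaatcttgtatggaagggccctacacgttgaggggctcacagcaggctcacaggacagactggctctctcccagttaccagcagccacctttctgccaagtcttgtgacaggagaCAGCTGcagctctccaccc
Cox8a: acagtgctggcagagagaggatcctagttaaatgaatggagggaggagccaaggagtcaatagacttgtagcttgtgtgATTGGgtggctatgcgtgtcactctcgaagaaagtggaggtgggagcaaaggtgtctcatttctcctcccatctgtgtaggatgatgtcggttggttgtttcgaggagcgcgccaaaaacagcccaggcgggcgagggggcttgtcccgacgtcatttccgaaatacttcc
In these stretches, Cox7a1 held the CCAAT box in 2 places and Cox8a in 1, Cox8b held the E-box CAGCTG, and Cox7a2 held none of the motifs searched.

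Promoters of 300 bases (250 before to 50 after the start site) could be matched for 65 of the 82 symbols, and Cox6a2 was not among them. For a member with several promoters, the one nearest to the start of its principal transcript was taken. For the 27025 genes set beside them, the first by position was taken, without a choice by gene type or level. The 2 sets of shares thus rest on unlike choices. The letters of the nuclear respiratory factor NRF1 (GCGCATGCG) stood on either strand in 7 of the 65 (10.8%), beside 1.77% of 27025 genes of the table. Those of ETS factors such as GABP (CCGGAAG) stood in 15 (23.1% beside 9.08%), of YY1 (AAGATGGCG) in 6 (9.23% beside 1.49%) and of ERR (CAAGGTCA) in 4 (6.15% beside 1.51%). The E-box CAGCTG stood in 6 (9.23% beside 16.2%), CCAAT in 29 (44.6% beside 37.8%) and TATAAA in 7 (10.8% beside 14.1%). The member promoters had a median GC content of 57.0% and all promoters one of 52.7%. The part of GC content and of the unlike choice of promoters in these shares was not tested. Promoters with the NRF1 letters were those of Ndufa11, Ndufa8, Uqcr11, Uqcrc1, Cox6a1, Atp5k and Atp5l, and those with the ERR letters Ndufs5, Sdhd, Atp5g3 and Atp5l. A match of letters is a description and not a measured site.

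The balance of the complexes differed between brown adipose and heart. On CPM, brown adipose exceeded heart in both treatments for complexes II (4411 and 4174 CPM against 3280 and 3154), III (4948 and 4585 against 4631 and 4341) and IV (7527 and 7336 against 6676 and 6549). For complex I the tissues were close (11245 and 10525 against 11376 and 11153). Complex V summed to 12725 and 12411 CPM in brown adipose and to 17514 and 17368 CPM in heart. With TMM factors, the order held for complex II (4230 and 4051 against 3581 and 3562) but turned for complex III (4746 and 4450 against 5055 and 4903) and complex IV (7219 and 7119 against 7287 and 7396), and complex V stayed lower (12204 and 12045 against 19119 and 19616). DESeq2's size factors turned complexes III and IV as well. Ratios of complexes within a library do not depend on the scaling. The sum of complex V over that of complex I was 1.13 (fed) and 1.18 (fasting) in brown adipose, between 1.19 and 1.32 in lung, spleen, white adipose and muscle, and between 1.4 and 1.6 in liver, heart and kidney. Brown adipose thus had the lowest ratio in each treatment, and fasting brown adipose lay next to fasting lung. For complex II over complex I, brown adipose had 0.392 and 0.397, and only fed liver (0.403) was higher. Sdha, the flavoprotein that oxidises succinate, was at 2421 and 2502 CPM in brown adipose and at 1572 and 1567 CPM in heart.

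Within complex V, the c ring stood apart from the other parts. Atp5g1, Atp5g2 and Atp5g3 encode the same mature c subunit, and all of them were lower in brown adipose than in heart. Atp5g1 (chromosome 11, 96068852-96075670) was at 716 and 628 CPM in heart, 242 and 171 in muscle, 163 and 121 in kidney, 82.6 and 80.8 in liver, and 8.61 and 5.41 CPM in brown adipose. The brown adipose libraries were the lowest of the 16, under the next lowest, fasting lung (21.2 CPM). On CPM, Atp5g1 in brown adipose came to 3.56% (fed) and 3.16% (fasting) of its level in muscle. Beside it, fast skeletal muscle markers came to 1.79% and 0.823%, and their part was not tested. Atp5g3 (chromosome 2, 73908447-73911326) was at 707 and 577 CPM in heart and at 131 and 111 in brown adipose, and Atp5g2 (chromosome 15, 102662864-102672352) at 100 and 104 CPM in heart and at 60.6 and 65.4 CPM in brown adipose.

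In the fit, Atp5g1 differed by -3.65 ± 0.18 (SE) on the log2 scale in brown adipose from the other tissues (edgeR adjusted p = 8.84e-08). It was the one member that edgeR called lower there, whereas DESeq2 called more than 1 (beside 17.4% of all genes). Atp5g3 differed by -0.37 ± 0.16 (adjusted p = 0.0682) and did not pass. Of the 17 complex V members above 1 CPM in both tissues, 16 were lower in brown adipose than in heart. The median log2 ratio of the tissues was -2.44 (fed) for the 3 c ring genes, -0.46 for the 5 genes of the F1 head and central stalk, -0.68 for the 4 of the peripheral stalk and -0.27 for the 4 small membrane subunits. Complex I had a median of -0.09 and complex IV one of 0.15. With TMM factors these medians were -0.27 and -0.04, and that of complex V moved from -0.61 to -0.80 with the same 16 of 17 below 0. Atp5b, the catalytic beta subunit of the F1 head, stood at 4904 and 5079 CPM in brown adipose and at 5251 and 5602 CPM in heart.

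Per kb of transcript, the c ring genes summed to 6.06% of the F1 genes in fed and 5.74% in fasting brown adipose. In the other 14 libraries this ratio lay between 21.7% (fed white adipose) and 35.4% (fed heart). The principal transcript of Atp5g1 taken here has 596 bases, and the union of its exons in the deposited table has 4912. With the deposited lengths, the share of Atp5g1 in the c family was 27.5% in fed heart and 1.79% in fed brown adipose, against 49.6% and 4.31% per kb of the principal transcript. Comparisons of CPM between tissues do not depend on the length.

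**Figure D4:**
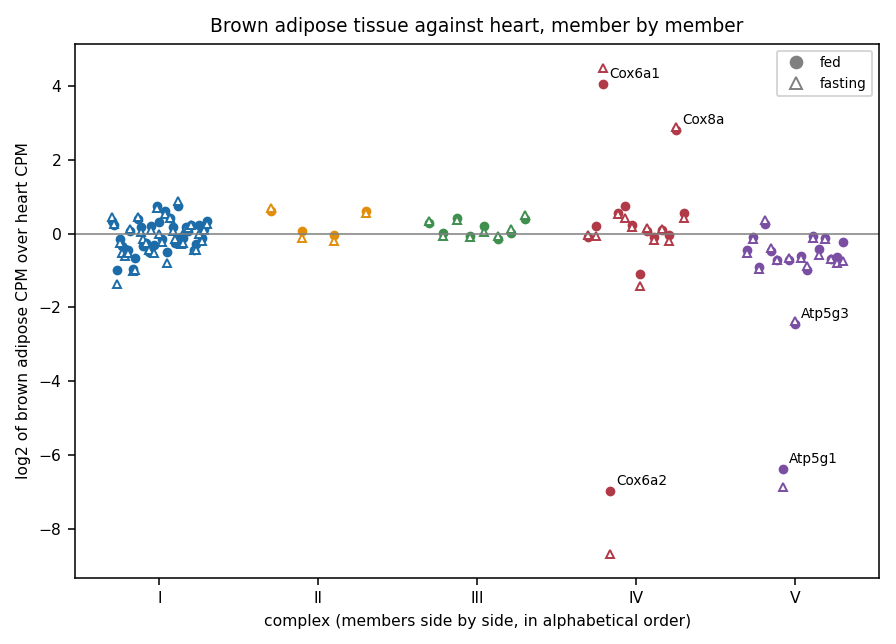
Log2 of the CPM in brown adipose over that in heart for each member above 1 CPM in both tissues, by complex, with filled circles for fed and open triangles for fasting. Complex I lies around 0 (median -0.09 fed), whereas 16 of 17 complex V members lie below 0, Atp5g1 at -6.38 and Atp5g3 at -2.44, and in complex IV Cox6a1 and Cox8a lie above and Cox6a2 below.

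The same muscle isoforms set the extremes on the low side. In spleen, Cox8b differed from the other tissues by -6.71 ± 0.53 (SE, edgeR adjusted p = 7.82e-07) and Cox7a1 by -6.08 ± 0.20 (adjusted p = 7.09e-10) on the log2 scale. In white adipose the furthest were Cox6a2 (-4.99 ± 0.41, adjusted p = 4.14e-06) and Cox7a1 (-3.61 ± 0.16, adjusted p = 4.32e-08). Liver (Cox6a2 -4.46 and Cox8b -4.0) and kidney (Cox8b -4.14 and Cox6a2 -2.75) also had muscle isoforms at the low end. In these pairs of gene and tissue the levels lay between 0.177 and 2.26 CPM, so their differences rest on few counts.

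Other members also kept a pattern of their own. Ndufa4l2, known as a hypoxia-responsive paralogue of Ndufa4, was highest in lung (17.8 CPM fed and 12.9 CPM fasting) and lowest in fasting liver (0.441 CPM). In lung it made up 14.2% and 13.3% of the pair per kb, and elsewhere at most 3.91%. Cox4i2, a paralogue known from lung that the rule leaves out, had the same tissue on top, with 32.2 and 28.3 CPM in lung and at most 5.63 CPM elsewhere. Cox4i1, its general partner, stood at 139 and 134 CPM in lung. Cox6b2, a paralogue known from testis, peaked at 5.82 CPM in fasting kidney and 5.49 CPM in fed lung. Uqcrq, a small subunit of complex III, was the member furthest below the other tissues in lung (-2.93 ± 0.18, edgeR adjusted p = 1.79e-07) and the furthest above them in liver (1.54 on the log2 scale).

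Cox7a2l, which is known for joining complexes III and IV into supercomplexes, varied least between tissues. Its highest fed tissue was 3.06 times its lowest, the smallest such ratio among the 80 members. It ranged from 61.3 CPM in fed liver to 192 CPM in fasting heart. Spleen, lowest for most members, held 155 and 175 CPM, near brown adipose at 175 and 170 CPM. It was the member nearest to the other tissues in spleen, with a difference of -0.06 ± 0.13 (edgeR adjusted p = 0.70), and 78 of the other 79 members tested were called lower there. The tissue averages use TMM factors, which moved spleen downwards relative to CPM.

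Between genes, levels were compared per kb of principal transcript, as the median over 16 libraries, among the members at 1 CPM or more in every library. That limit leaves out Ndufa4l2 (4.05 CPM per kb) in complex I and Cox6a2, Cox6b2, Cox7a1, Cox8b, Cox7b2 and Cox8c in complex IV, all of which had medians of 18.4 or less. In complex I, Ndufa4 (353 CPM per kb) and Ndufb9 (207) were highest and Ndufs4 (40.5) and Ndufc1 (31.5) lowest. Ndufa4 is now assigned to complex IV. In complex II, Sdha (185) and Sdhb (158), which form the catalytic part, stood close to the membrane anchor Sdhd (153), and the anchor Sdhc (42) was lowest. In complex III, Uqcrh (272) and Uqcrb (263) were highest and Uqcrfs1 (140), the Rieske iron-sulfur protein, and the core subunit Uqcrc2 (128) were lowest. Complex IV was led by Cox6c (381) and Cox6b1 (287) and closed by Cox7a2 (138) and Cox7a2l (104). In complex V, Atp5b (750) and Atp5a1 (496), which form the catalytic hexamer, were highest and Atp5g1 (93.5) and Atp5s (6.01) lowest.

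Scaled to library size, most members were slightly lower in the fasting libraries. In the fit across the 8 tissues, 72 of the 80 members tested had a negative fitted change (beside 51.8% of 17296 genes), and their median was -0.12 on the log2 scale, beside -0.01 for all genes. Without the white adipose libraries 69 were fitted lower and the median was -0.07, beside -0.01. The medians were -0.13 for the 37 members of complex I, -0.16 for the 4 of complex II, -0.09 for the 8 of complex III, -0.10 for the 14 of complex IV and -0.09 for the 17 of complex V. Only 1 member passed an adjusted p under 0.05 (1.25% of the members, beside 2.08% of all genes called lower), and 0 were called higher (2.31% of all genes). At an unadjusted p under 0.05, 17 were lower (beside 13.1% of all genes) and 1 was higher (10.6%). By DESeq2's Wald test 8 were called lower (6.09%) and 0 higher (5.2%). The tissues are not independent animals, so these p-values measure the spread of the change between tissues of the same pools.

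The member called was Ndufs8 (chromosome 19, 3908863-3912774), a core subunit of complex I that carries iron-sulfur clusters. Ndufs8 went from 85.4 to 63.9 CPM in muscle, from 53.7 to 42.4 in liver, from 41.2 to 27.7 in white adipose and from 225 to 173 in brown adipose. It also went from 190 to 173 CPM in heart, from 41.5 to 36.2 in spleen, from 120 to 97.7 in kidney and from 31.6 to 22.6 in lung. The fasting library was thus the lower one in 8 of 8 tissues. The fitted change was -0.31 ± 0.07 (SE) on the log2 scale (edgeR adjusted p = 0.0383). Its call was lost under 11 of the 15 alternatives, among them each fit that left out 1 tissue other than spleen.

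The members that followed by p lay between -0.16 and -0.43 and missed the threshold. Ndufa11, an accessory subunit of complex I, had -0.35 ± 0.09 (edgeR adjusted p = 0.0610), Ndufc1 -0.21 ± 0.06 (adjusted p = 0.0760) and Atp5k, the e subunit of the ATP synthase, -0.31 ± 0.09 (adjusted p = 0.0804). Atp5g1 had -0.29 ± 0.09 (adjusted p = 0.0881). Then came Ndufb2, Ndufs5, Atp5e, Ndufa4l2, Uqcrq, Ndufb6, Ndufs6, Ndufv3, Atp5mpl and Cox7a1, with adjusted p-values from 0.102 to 0.201. The largest negative change, -0.44 ± 0.20, was that of Cox6a2 (adjusted p = 0.205). On the positive side, Cox6b2 (0.46 ± 0.29, adjusted p = 0.359) and Cox7a2l (0.20 ± 0.09, adjusted p = 0.203) led, followed by Ndufa6 (0.08), Atp5s (0.07) and Atp5g2 (0.06).

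Direction can also be counted tissue by tissue on CPM. Of the 75 members at 1 CPM or more in every library, 13 (17.3%) were lower in the fasting library in 8 of 8 tissues, beside 8.27% of 10792 such genes, and 44 (58.7%) in 7 or more, beside 22.5%. The 13 were Atp5e, Atp5k, Cox5a, Ndufa11, Ndufb2, Ndufb8, Ndufc1, Ndufs5, Ndufs6, Ndufs8, Ndufv3, Sdhc and Uqcrc2. Just 2 members were higher in 6 tissues or more (2.67%, beside 18.0%), namely Cox7a2l and Ndufa6. Cox7a2l was lower with fasting in muscle (79.4 to 66.9 CPM) and brown adipose and Ndufa6 in muscle (121 to 93.9 CPM) and heart.

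The tissues differed in how far the members moved. The median log2 change of the members was -0.34 in muscle (beside -0.14 for all genes at 1 CPM), -0.29 in white adipose (0.07), -0.25 in lung (-0.09), -0.14 in kidney (-0.06), -0.12 in brown adipose (-0.03), -0.09 in spleen (-0.02) and -0.06 in heart (-0.07). In liver it was 0.07, beside -0.13. With the all-gene median subtracted, white adipose stood lowest (-0.36), followed by muscle (-0.19) and lung (-0.16), heart was at 0.00 and liver stood highest (0.20). In muscle, 78 of 79 members were lower in the fasting library, beside 63.5% of all genes, and in white adipose 70 of 79, beside 43.6%. In liver, 29 of 76 were lower, beside 63.0%. The number lower in liver was 10 with TMM factors, and in heart it was 55 of 80 on CPM and 44 with TMM factors. With 1 library per treatment, the difference between liver and the other tissues was not tested. Marker lists also differed between the spleen libraries. From fed to fasting spleen, the 7 erythroid markers summed to 3866 and 9394 CPM and the 12 pancreatic acinar markers to 628 and 11.9 CPM. Lists of other cell types differed between the liver libraries as well. From fed to fasting liver, the 12 pancreatic acinar markers summed to 123 and 275 CPM. The 10 adipocyte markers summed to 109 and 208 CPM, and nearly all of this rise was Cidec (5.17 and 102). Pparg (13.2 and 8.21) and Lpl (38.6 and 28.2) were lower, and the others stood at 26.7 CPM or less. The 5 brown adipocyte markers summed to 541 and 242 CPM, nearly all of it Elovl3 (537 and 238). Their part in the members' changes was not tested.

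**Figure D5:**
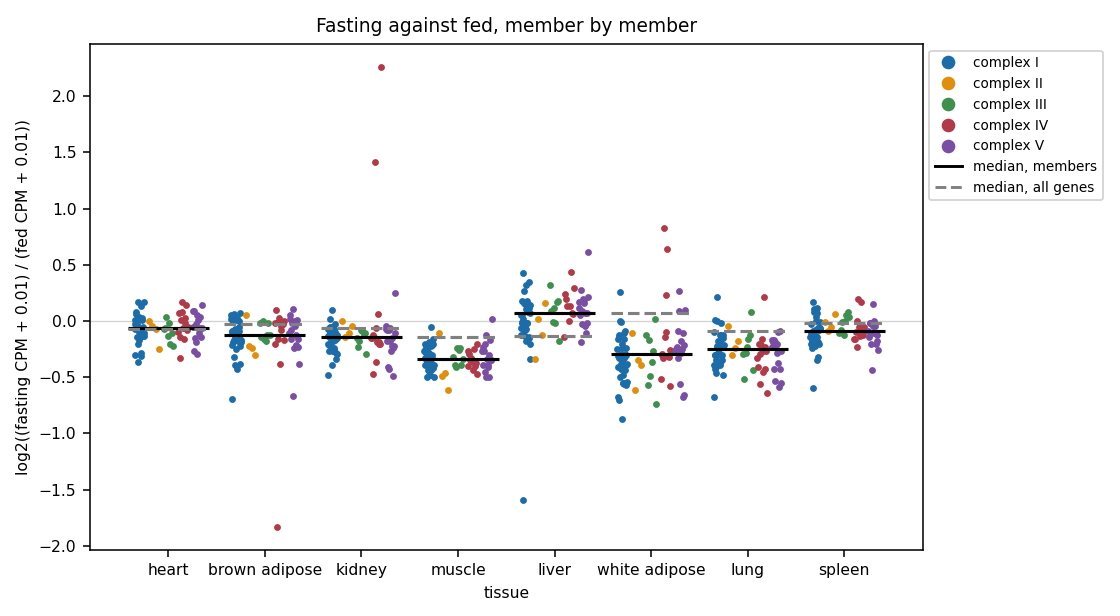
Log2 change from the fed to the fasting library, with 0.01 CPM added to each, for every member at 1 CPM or more in either library, by tissue and complex, with a black line at the members' median and a dashed grey line at the median of all genes. The black line lies below the grey one in muscle (-0.34 against -0.14) and white adipose (-0.29 against 0.07) and above it in liver (0.07 against -0.13).

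Few single members moved far. Within a tissue, a gene was called at a log2 change above 0.5 in size and a two-sided Fisher's exact p under 0.01 between the 2 libraries. In white adipose, 15 of 79 members were called lower, beside 9.23% of all genes, and 1 was called higher, beside 19.8%. The number lower was 23 with TMM factors (beside 12.8%) and 25 with DESeq2's size factors (13.2%). Some markers of other tissues and cell types also differed between these libraries. From the fed to the fasting library, the 8 kidney tubule markers summed to 69.9 and 750 CPM. Nearly all of this rise was Lrp2 (34.9 and 710), and the others stood at 20.4 CPM or less in both. The 7 lung epithelium markers summed to 3.52 and 129 CPM. Nearly all of this rise was Foxj1 (1.76 and 126), and the others stood at 3.39 CPM or less. The 10 B cell markers summed to 352 and 87.6 CPM, most of it Ighm (338 and 76.3), and the 10 adipocyte markers to 30723 and 26702 CPM. Their part in the members' changes was not tested. The 15 called lower were 8 of complex I, 1 of complex II, 2 of complex III, 1 of complex IV and 3 of complex V. Ndufb3, an accessory subunit of complex I, had 64.8 CPM when fed and 35.4 CPM when fasting, a log2 change of -0.87. Uqcrq went from 44.3 to 26.5 CPM (-0.74). The core subunit Ndufs1 went from 146 to 99.4 CPM (-0.56) and Sdhb, the iron-sulfur subunit of complex II, from 130 to 85.1 CPM (-0.61). Against these, Cox7a2l went from 73.2 to 114 CPM (0.64). None of the 16 calls passed the exact test of edgeR at the same p when replicates were assumed to vary by a coefficient of 0.2, a test that called 2.18% of all genes lower and 10.2% higher.

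Elsewhere the counts were lower. In lung, 7 of 80 members were called lower (10.1% of all genes) and 0 higher (4.23%), among them Ndufa1 from 24 to 15 CPM (-0.68), Atp5k from 35.6 to 23.7 CPM (-0.59) and, at lower counts, Cox8b from 5.16 to 3.3 CPM (-0.64). The other 4 were Uqcr11, Atp5g1, Atp5o and Cox6a2, and these 4 were not called with TMM factors or DESeq2's size factors, which left 3 (beside 7.94% and 8.03% of all genes). Marker lists also differed between the lung libraries. Cardiomyocyte markers went from 976 to 488 CPM, B cell markers from 497 to 254 and T cell markers from 96 to 29 CPM. Kidney tubule markers went from 353 to 207 CPM, most of it Lrp2 (314 to 172). Adipocyte markers went from 342 to 625 CPM, of which Lpl went from 151 to 307. Lung epithelium markers were at 26457 and 27965 CPM. The part of these lists was not tested. In brown adipose, 3 of 80 were lower (12.2%) and 0 higher (8.68%). These were Ndufa11 from 81.6 to 50.7 CPM (-0.69), Atp5g1 from 8.61 to 5.41 CPM (-0.67) and Cox6a2 from 8.49 to 2.39 CPM (-1.83). Fast muscle markers went from 3058 to 1396 CPM in the same libraries. In muscle, Atp5g1 was at 242 and 171 CPM and Cox6a2 at 399 and 313 CPM. The part of muscle RNA in the changes of Atp5g1 and Cox6a2 was not tested.

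In muscle, 2 of 79 were lower (16.4%) and 0 higher (7.8%). These were Sdhd, a membrane anchor of complex II, from 197 to 129 CPM (-0.61), and Ndufa8 from 78.1 to 55.2 CPM (-0.50), which was not called with TMM factors or DESeq2's size factors. The median change was lowest in muscle on CPM, the middle range of members ran from -0.40 to -0.24, and few passed the fold. From fed to fasting muscle, the 7 cardiomyocyte markers summed to 136 and 58.8 CPM, most of it Myl3 (104 and 38.2), a light chain that slow muscle fibres also use. The 10 adipocyte markers summed to 586 and 544 CPM, most of it Lpl (348 and 327). Only Fabp4 (110 and 132) and Lipe (22.9 and 30.8) were higher when fasting, and Plin1 (11.5 and 3.33) and Adipoq (16.1 and 6.79) were among the lower ones. The 10 fast skeletal muscle markers summed to 170434 and 169659 CPM. Their part in the members' changes was not tested. In liver, 1 of 76 was lower (15.8%), Ndufa4l2 from 31 to 11 counts, and 1 higher (7.34%), Atp5s from 5.12 to 7.81 CPM. More members were called higher in liver with TMM factors or DESeq2's size factors, and 0 at a minimum of 10 CPM, as the last section gives. In kidney, 0 of 80 were lower (6.23%) and 2 higher (4.48%), namely Cox6b2 from 2.18 to 5.82 CPM and Cox8b from 6 to 34 counts. Beside Cox8b, which is highest in brown adipose, the 5 brown adipocyte markers summed to 2.23 CPM in fed and 9.78 CPM in fasting kidney (Ucp1 0.579 and 2.13, Cidea 0.936 and 4.89), and their part was not tested. In heart, 0 of 80 were called lower (9.65%) or higher (7.01%), and in spleen 0 of 78 were called lower (2.33%) or higher (3.62%), and the exact test of edgeR with assumed variation also called 0 in both. That test called 0 members in muscle (beside 2.94% of all genes lower and 1.85% higher), liver (3.45% and 2.41%) and lung (1.76% and 0.768%). It called Cox6a2 lower in brown adipose (3.16%), and Cox6b2 and Cox8b higher in kidney (0.929%). In heart it called 1.57% of all genes lower and 1.92% higher, and in spleen 0.472% and 0.645%.

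The isoform shares were compared between the fed and the fasting library of a tissue. In heart, Cox6a2 went from 93.6% to 94.4% of its pair per kb, Cox7a1 from 78.9% to 80.0% and Cox8b from 85.7% to 85.9%. In brown adipose, Cox7a1 took 49.5% of the raw counts of its pair when fed (interval 48.6% to 50.4%) and 44.3% when fasting (43.3% to 45.4%), and Cox8b 45.1% (44.4% to 45.8%) and 42.1% (41.4% to 42.9%). These intervals do not overlap, but they cover counting error only and there is 1 library per treatment. In white adipose, the c subunit share per kb moved from Atp5g3 (61.8% fed, 48.6% fasting) to Atp5g2 (24.9% fed, 34.9% fasting).

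Genes that work with the chain were read in the same fit, where 2.08% of all genes were called lower and 51.8% were fitted lower, from lists chosen with earlier results of these data known. All tested lists but that of regulators had a negative median change. The 15 assembly factors of complex I had a median of -0.19 with 1 called lower (Ndufaf5, -0.34 ± 0.08, edgeR adjusted p = 0.0440), the 4 of complex II -0.21 with 1 called (Sdhaf4, -0.37 ± 0.08, adjusted p = 0.0373), and the 6 of complex III -0.23 with 1 called (Bcs1l, which inserts the Rieske protein, -0.42 ± 0.09, adjusted p = 0.0361). The 18 tested of complex IV had a median of -0.21 with 1 called (Coa3, -0.33 ± 0.08, adjusted p = 0.0494), and the 3 of the ATP synthase one of -0.17 with 0 called. Of 77 mitochondrial ribosomal proteins tested, 68 were fitted lower with a median of -0.14, and 2 were called, Mrps22 (-0.46 ± 0.09, adjusted p = 0.0288) and Mrpl46 (-0.31 ± 0.07, adjusted p = 0.0355). The 2 of 77 are near the share of all genes called, and the shorter lists had 1 call at most. The 12 TCA cycle genes had a median of -0.02 and the 7 outer membrane genes one of -0.08, with 0 called in either. Among 14 regulators (median 0.02), Perm1, a muscle regulator of mitochondrial genes, was called lower (-0.73 ± 0.17, adjusted p = 0.0423). Perm1 went from 211 to 69.6 CPM in muscle and from 456 to 237 CPM in heart. No gene of these lists was called higher.

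Subunits and partners outside the rule were read in the same fit. Ndufab1 had a fitted change of -0.16 and Cyc1, the cytochrome c1 of complex III, one of -0.23 ± 0.10 (edgeR adjusted p = 0.205). Cycs, cytochrome c itself, had -0.37 ± 0.13 (adjusted p = 0.118). It went from 69.3 to 34.4 CPM in white adipose and from 73.6 to 86.5 CPM in liver. Cox4i1 had 0.02 ± 0.07 (adjusted p = 0.918) and Cox4i2 -0.45 ± 0.22 (adjusted p = 0.243). Atpif1, the inhibitory factor of the ATP synthase, was at 10.4 and 7.58 CPM in brown adipose and at 88.8 and 107 CPM in heart, with a fitted fasting change of -0.11 ± 0.12 (adjusted p = 0.625). G0s2, which inhibits lipolysis and is also known to bind the ATP synthase, rose from 52.2 to 235 CPM in liver and went from 302 to 90.6 CPM in white adipose and from 12.2 to 2.42 CPM in muscle, so that its fitted change across tissues was -0.36 ± 0.43 (adjusted p = 0.654). The summed TCA cycle list was 21173 CPM in fed brown adipose and 11568 CPM in fed heart, the reverse of the order of complex V.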

How the data were processed

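The authors prepared strand-specific libraries, sequenced them as paired-end reads of 100 base pairs and, per the submitters' processing notes and the methods, used fastp 0.23.2, FastQC 0.11.8, HISAT2 2.2.1.0 on GRCm38 and featureCounts (Subread 2.0) with GENCODE mouse release 24. They deposited counts per gene and library without normalization, with a gene length (an other value) that was used in an alternative only. The strand setting, and the choice of reads or pairs as the unit of counting, are not given in the sources used here.

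Symbols came from an older GENCODE release of the same build (55144 of 55385 identifiers matched without version). CPM were counts per 1000000 of the library's total. Levels between genes were divided by the exon length of 1 transcript per gene of that release, chosen by APPRIS rank, CCDS, support level and then the shortest. The members, the lists and the named genes were chosen with earlier results of these data known. Named genes were the isoform families, the members called and the 5 largest changes each way in the fasting fit, the 2 largest called changes each way in a tissue at 10 CPM or more, the highest and lowest members per kb, those furthest from the other tissues, and the called genes of the lists with Cox4i1, Cox4i2, Cyc1, Cycs, Atpif1 and G0s2. Others, such as the members next by p in the fasting fit, Sdha, Atp5b, and Ndufs1 and Sdhb in white adipose, were named after their values were seen.

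The fit across tissues used edgeR 4.0.16 (R 4.3.3) with TMM factors, filterByExpr, tissue and treatment as terms, the quasi-likelihood test with 7 residual degrees of freedom and Benjamini-Hochberg adjustment over 17296 genes. Changes within a tissue were log2 ratios of CPM + 0.01 with Fisher's exact test in scipy 1.17.1. Both steps were tested on simulated data. Of the 83 members, 29 overlap exons of another gene, 25 of them on the opposite strand, and reads of processed copies may be shared. PCR reads without molecular identifiers are not independent molecules. Alternatives used DESeq2 1.42.0, other scalings, filters, pseudocounts and left-out tissues.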

Additional observations from a re-analysis of the deposited data

Results flagged for a closer look

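Across the 8 tissues, the log2 changes of the 5 complexes' summed CPM, of all members together and of the 75 members at 1 CPM or more in every library were searched for a tissue that lies far from the other 7 relative to their range. Chance marks about 1 in 20 such groups, and 6 of 81 were marked, 4 of them in liver. Liver lay above the other tissues for Ndufs7, a core subunit of complex I (0.35, from 42.9 to 54.7 CPM), for Uqcr10 of complex III (0.32, from 67.9 to 84.9 CPM) and for Atp5d, the delta subunit of the F1 head (0.28, from 124 to 151 CPM). Liver lay below them for Sdha (-0.34, from 530 to 419 CPM). Ndufa6 stood out in muscle (-0.36, from 121 to 93.9 CPM). Ndufa1 stood out in lung (-0.68, from 24 to 15 CPM). The cause of these differences was not tested.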

How the results depend on the processing

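Members called lower with fasting across tissues numbered 1. The count was 6 with libraries scaled by total counts (beside 3.69% of all genes), 8 by DESeq2's Wald test (6.09%), and 0 with no filter (0.817%), with filterByExpr by tissue and treatment (0.84%, chosen after seeing the data), with no tissue block (0.00578%) and without both adipose tissues (0.202%). Leaving out each tissue in turn gave 0 to 2, namely 2 without liver (1.39%), 1 without spleen (2.22%) and 0 without any other, where the share of all genes ran from 0.297% without brown adipose to 1.21% without white adipose. Over all of these fits, 67 to 76 members were fitted lower, and the median fitted change of -0.12 was -0.07 without white adipose, -0.07 without both adipose tissues, -0.08 with no tissue block and -0.16 without liver or with total counts. Fed and fasting libraries were paired by tissue in the reported fit, and the fit with no tissue block is the unpaired one. No replicate block could be added because each group has 1 library.

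Within tissues, TMM factors and DESeq2's size factors each gave 1 member lower in muscle (beside 12.4% and 13.0% of all genes), 3 higher in liver (10.5% and 10.3%) and 3 lower in lung (7.94% and 8.03%), and they gave 23 and 25 lower in white adipose (12.8% and 13.2%). A pseudocount of 1 CPM gave 1 lower in muscle (14.5%), and testing every gene with a count gave 2 higher in liver (4.46%). A minimum of 10 CPM gave 0 lower (15.4%) and 0 higher (7.37%) in liver, 1 lower in brown adipose (12%) and 0 higher in kidney (3.78%). The exact test of edgeR with assumed variation gave 0 lower in muscle (2.94%), liver (3.45%), white adipose (2.18%) and lung (1.76%), 1 lower in brown adipose (3.16%), and 0 higher in liver (2.41%) and white adipose (10.2%).

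Between tissues, scaling by total counts gave 26 members higher in muscle (beside 9.3% of all genes), 3 higher (13.0%) and 41 lower (56.4%) in liver, 2 higher in white adipose (43.3%), 1 higher in spleen (51.6%) and 41 higher in kidney (29.1%). DESeq2 gave 2 lower in brown adipose (17.4%), and a fit with no treatment term gave 0 higher in white adipose (22.9%). Scaling by total counts also changed the sign of the fitted difference for 60 of 80 members in liver and 12 in muscle, of which 10 and 11 had been called, and for at most 2 in any other tissue. The other fits changed the sign of at most 3 members in a tissue, none of them called. The cause of these shifts was not tested. Calls within a tissue rest on 1 library per treatment, and members under a few CPM, such as Cox8b in kidney, rest on few counts.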
